A study of Mus musculus with 6 samples.

Results

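Open chromatin around 4 genes of the regulatory T cell programme, Foxp3, Nrp1, Itgae and Lrrc32, was followed by ATAC-seq while mouse CD4 T cells were driven towards the Th17 fate. ATAC-seq uses the Tn5 transposase to cut accessible DNA, and a peak is an interval where a caller found more cuts than around it. Overlapping peaks of the 3 deposited lists (1 bp was enough) were joined into regions, and those that overlapped the RefSeq body of 1 of the 4 genes, or lay within 50 kb of it, were taken. This gave 77 of the 81315 merged regions: 11 at Foxp3, 39 at Nrp1, 19 at Itgae and 8 at Lrrc32. All cells were from C57BL/6 mice. The Th17 cells were isolated naive CD4+ T cells grown for 48 h or 72 h on plates coated with hamster IgG, with 0.25 μg/mL anti-CD3ε, 1 μg/mL anti-CD28, 0.1 ng/mL TGF-β and 20 ng/mL IL-6. The naive CD4+ T cells were untreated. The labels name 2 libraries per condition, but 1 peak list per condition was analysed here, and the sources used here do not state whether it comes from 1 library or from both. There is therefore no replicate check on any difference below and no test. The intervals given are exact Clopper-Pearson 95% intervals, which cover counting error only.

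Foxp3 is the transcription factor that defines regulatory T cells, and its gene carries conserved noncoding elements in its introns that act in its induction and in the stability of its expression. TGF-β with T cell receptor signals induces Foxp3 in naive CD4 T cells, while IL-6 acting through STAT3 turns the same cells towards RORγt and the Th17 fate. Nrp1 encodes neuropilin-1, a receptor for semaphorins and VEGF that is found on many thymus-derived regulatory T cells. Itgae encodes CD103, the integrin αE chain that pairs with β7 to bind E-cadherin. Lrrc32 encodes GARP, which holds latent TGF-β on the surface of activated regulatory T cells.

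The start sites of Foxp3 and Nrp1 differed in whether any list had a peak over them. The 250 bases before each of these starts are given from RefSeq (GRCm38.p6). The RefSeq start table used here matched 2 of the 4 genes, Foxp3 with 2 starts and Nrp1 with 1, all on the plus strand. In the Foxp3 lines the capitals mark a TATAAA match, which begins 32 bases before the first start, and a match to the STAT motif TTCNNNGAA, which begins 139 bases before the second. At Nrp1 the capitals mark the 134 bases that lay under a peak of the naive or the 72 h list.
Foxp3, first start, chrX:7579426-7579675: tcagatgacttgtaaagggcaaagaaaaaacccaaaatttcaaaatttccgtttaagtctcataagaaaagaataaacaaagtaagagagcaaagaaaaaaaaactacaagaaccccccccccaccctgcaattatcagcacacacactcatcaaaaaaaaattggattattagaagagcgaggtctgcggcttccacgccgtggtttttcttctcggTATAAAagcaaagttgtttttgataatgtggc
Foxp3, second start, chrX:7580233-7580482: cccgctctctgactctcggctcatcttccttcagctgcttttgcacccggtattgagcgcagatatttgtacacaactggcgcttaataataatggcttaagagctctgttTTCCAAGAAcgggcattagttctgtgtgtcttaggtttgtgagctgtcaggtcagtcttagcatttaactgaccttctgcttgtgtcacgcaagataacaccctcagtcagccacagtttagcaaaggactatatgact
Nrp1, chr8:128358823-128359072: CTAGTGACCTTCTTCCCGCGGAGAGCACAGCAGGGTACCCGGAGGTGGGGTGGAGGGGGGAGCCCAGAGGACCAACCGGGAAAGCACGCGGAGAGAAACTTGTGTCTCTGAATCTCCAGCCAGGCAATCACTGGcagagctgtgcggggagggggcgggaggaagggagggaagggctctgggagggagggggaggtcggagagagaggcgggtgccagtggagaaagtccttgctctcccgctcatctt

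No list held a peak in either Foxp3 start window, taken as the 250 bases before a start and the 50 after it. The nearest peak to the first window was 4398 bp away in the naive list, 4533 bp in the 48 h list and 4551 bp in the 72 h list. All of these lie in the region at the start of Ppp1r3f, a neighbour that encodes a regulatory subunit of a protein phosphatase. Of 32851 RefSeq start windows in the genome, 37.1% lay under a peak in the naive list, 35.3% in the 48 h list and 38.2% in the 72 h list. At Nrp1, a naive peak covered 120 bases of the start window and a 72 h peak covered 134. No 48 h peak touched this window, the nearest being 156 bp away. The Nrp1 start used here lies inside the RefSeq body, which begins at chr8:128358591. A 48 h peak, chr8:128358399-128358666, covers that lower end of the body. The second Foxp3 start also lies inside its gene's body, which begins at chrX:7579676.

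Both strands of the 3 windows were searched for 12 short motifs, and a match is a description of the letters only. For factors downstream of the T cell receptor these were TGANTCA for AP-1, TGGAAA for NFAT, GGGANTTTC for NF-kappaB and TGACGTCA for the cyclic AMP response element. For factors downstream of cytokines and TGF-β they were TTCNNNGAA for STAT proteins and GTCTG for SMAD proteins. For lineage factors they were TGTGGT for RUNX proteins, TGTTTAC for forkhead proteins, AGGTCA for ROR proteins and CAGGAA for ETS proteins, and TATAAA and CG were counted as well. The STAT letters matched in the second Foxp3 window alone of the 3, and 8.3% of all start windows hold them. An NFAT match on the minus strand overlaps that STAT match, beginning at base 111 of the window against base 112. The same window held 2 ROR matches, at bases 160 and 181, and the Nrp1 window held 1, at base 5. Of all start windows, 16.3% hold at least 1. The first Foxp3 window and the Nrp1 window held 1 SMAD match each, and 49.6% of all start windows hold at least 1. The TATA letters in the first Foxp3 window are found in 13.6% of all start windows. The 2 Foxp3 windows were poor in G and C, at 40.7% and 47.7%, with 6 and 8 CpG. The Nrp1 window had 64.0% G and C and 14 CpG, against medians of 52.7% and 7 CpG over all start windows.

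The 4 genes together held 46 regions in the naive list, 31 in the 48 h list and 45 in the 72 h list, out of 51917, 37425 and 51941. A region is called gained in Th17 cells where the Th17 list has a peak and the naive list has none, and lost where only the naive list has one. Both words are about listing, since DNA without a listed peak may still have been open to some degree. The lists come from bulk cells, so fewer cells with an open site and less opening per cell cannot be told apart. At 48 h against naive cells, 17 regions at the 4 genes were gained and 32 lost, which is 27.0% and 50.8% of the 63 regions in either list, beside 21.9% and 43.7% over all regions. At 72 h against naive cells, 26 were gained and 27 lost, or 36.1% and 37.5% of 72, beside 33.0% and 33.0% over all regions. Between 72 h and 48 h, 19 of 50 were gained, or 38.0% beside 35.3% over all regions, and 5 of 50 lost, beside 10.3%. With the same number of peaks from each list, the widest, this balance turned to 6 gained and 10 lost. That setting removes the narrowest peaks of the longer lists by construction. The shares over all regions were not computed in it, so the turn cannot be read as particular to these genes. The 48 h list is the shortest in the whole series, and the shares at the 4 genes lie within a few points of the background in the last comparison.

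**Figure D1:**
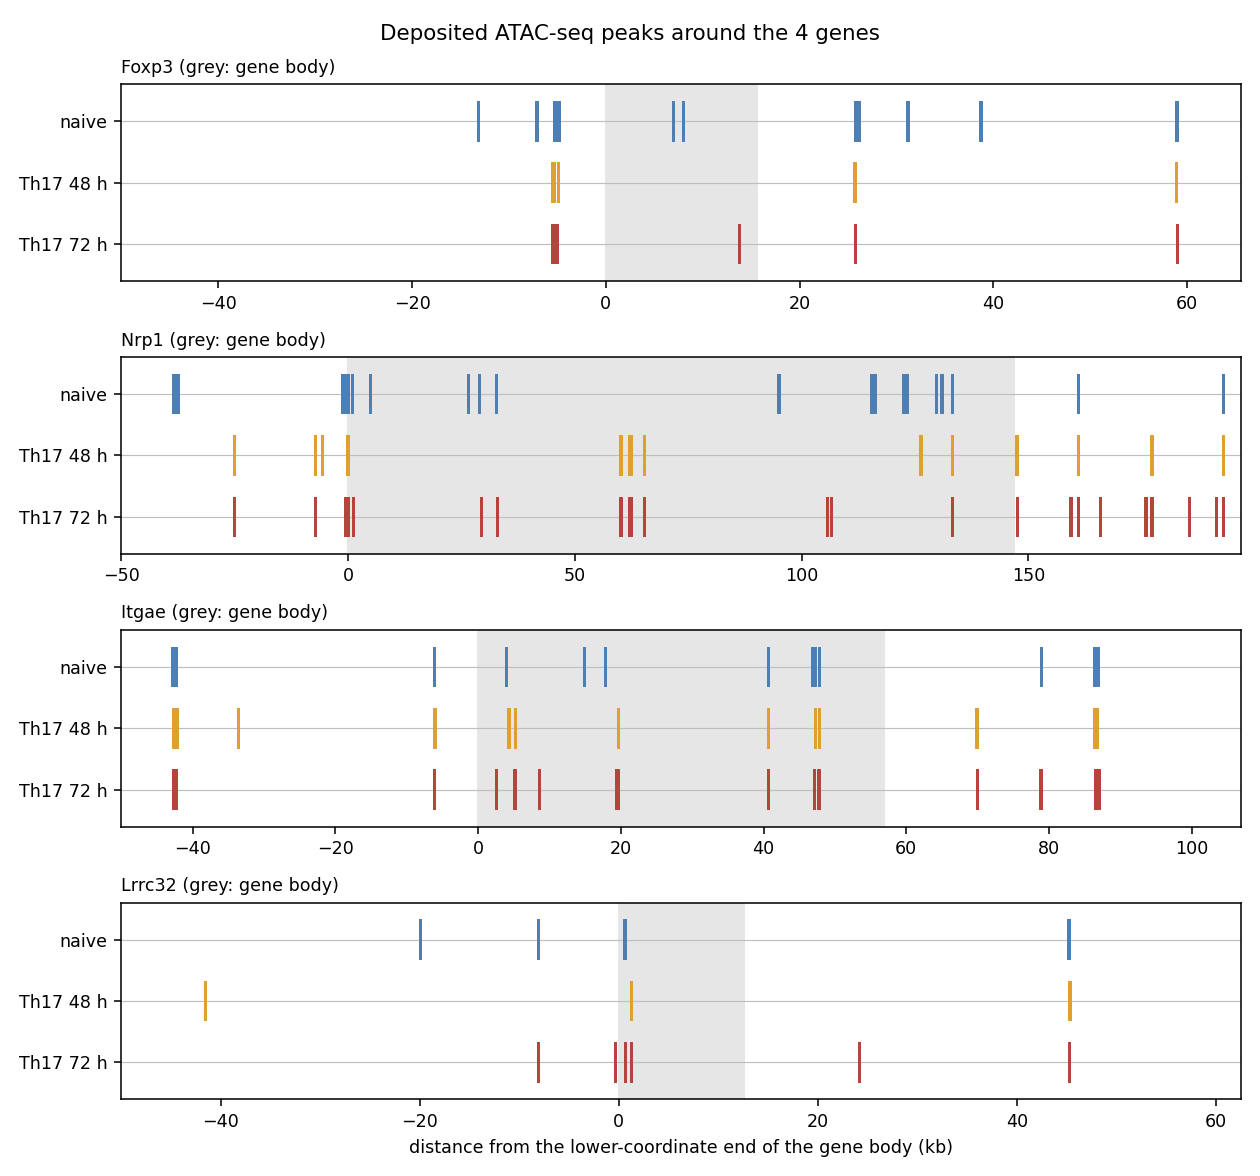
Peaks of the 3 lists around each gene, by distance in kb from the lower-coordinate end of the gene body, which is shaded. Very narrow peaks are drawn wider than they are so that they can be seen. Foxp3 has more naive peaks than Th17 peaks, while Nrp1 has a run of 4 Th17-only regions and a run of 5 naive-only regions in its body.

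At 48 h, 69.6% of the 46 naive regions at the 4 genes had no peak (54.2% to 82.3%), beside 55.9% of all naive regions. At 72 h the shares were 58.7% (43.2% to 73.0%) and 49.2%, and at both times the interval spans the value over all regions. Of the 77 regions, 27 were in the naive list alone, or 35.1% (24.5% to 46.8%) beside 28.8% of all regions. The 72 h list alone held 14, or 18.2% beside 18.3%, and the 48 h list alone 5, or 6.49% beside 4.73%. A further 12 were shared by the 48 h and 72 h lists, or 15.6% beside 13.1%, and 5 by the naive and 72 h lists, or 6.49% beside 6.86%. None was shared by the naive and 48 h lists alone, a class that holds 2.57% of all regions. In all 3 lists stood 14, or 18.2% (10.3% to 28.6%) beside 25.6%. For each of these 7 classes, the interval at the 4 genes spans the share over all regions.

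**Figure D2:**
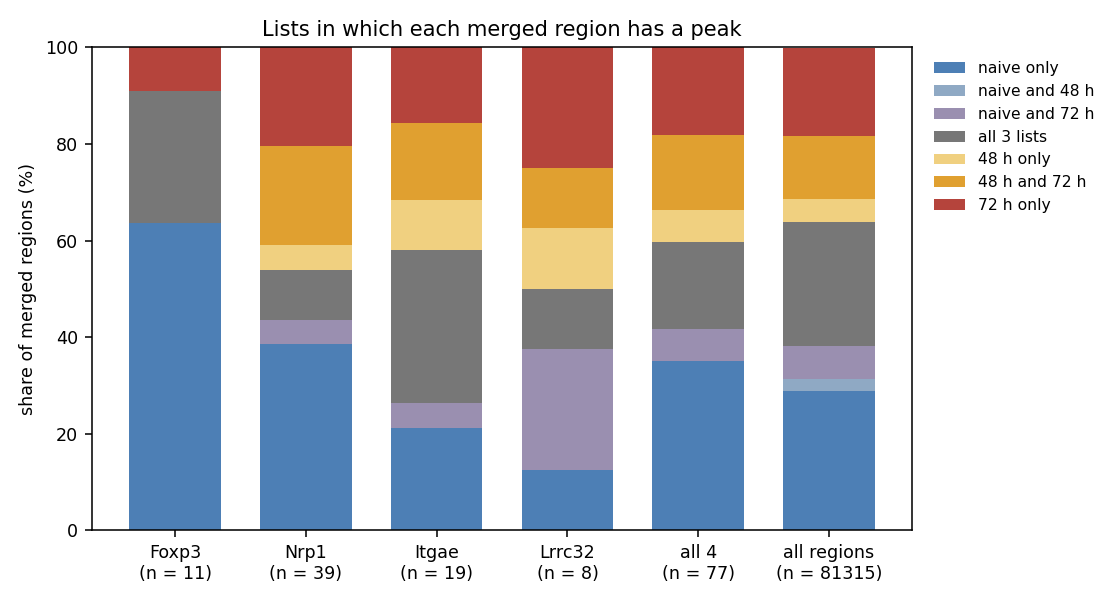
Share of merged regions in each of the 7 combinations of lists, for each gene, for the 4 together and for all 81315 regions. Naive-only regions make up 63.6% at Foxp3, 38.5% at Nrp1, 21.1% at Itgae and 12.5% at Lrrc32.

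Foxp3 (gene ID 20371, chrX:7579676-7595243, 15.6 kb) had 10 regions in the naive list, 3 in the 48 h list and 4 in the 72 h list. At 48 h against naive cells, none was gained and 7 were lost. At 72 h against naive cells, 1 was gained and the same number, 7, was lost. The 7 lost regions lacked a peak at both times. They are 7 of 10 naive regions, a share whose interval (34.8% to 93.3%) spans the 55.9% and 49.2% over all naive regions at 48 h and 72 h. Of 21896 protein-coding genes, 11.4% had as many or more lost at 48 h and 8.56% at 72 h.

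Within the Foxp3 body there were 3 regions, and none was shared between naive and Th17 cells. Over all regions, 34.5% of those in the naive or 48 h list were shared, and 34.1% of those in the naive or 72 h list. The naive list held 2 of the 3 body regions, chrX:7586609-7586768 of 160 bp and chrX:7587624-7587794 of 171 bp. They were centred 7.01 and 8.03 kb into the gene. Both are narrow for that list, at the 22.2nd and 25.4th percentile of its peak widths. The 72 h list held the third, chrX:7593438-7593543, a peak of 106 bp with a score of 44, which is at the 19.5th percentile of the scores in that list. The 48 h list had no peak in the body. Scores are the authors' own, their scale is not stated, and they are compared within a list only. Whether these regions coincide with the named intronic elements of Foxp3 was not tested.

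The other 8 Foxp3 regions lay outside the body, and 7 of them overlapped the body of another protein-coding gene. The 3 regions found in all lists each cover part of a neighbour's start window. These are chrX:7574038-7575027 at Ppp1r3f, which also overlaps the long noncoding RNA gene Flicr, chrX:7605255-7605567 at Ccdc22, and chrX:7638416-7638859 at Syp, the gene of the synaptic vesicle protein synaptophysin. Their 72 h scores were 153, 81 and 86. Of the 5 naive-only regions outside the body, 2 lay in Ppp1r3f and 2 in Cacna1f, which encodes a calcium channel subunit. The widest of them was chrX:7618140-7618649, 510 bp wide, in Cacna1f. The fifth, chrX:7605675-7605930, lay 149 bp from the nearest 48 h peak and 182 bp from the nearest 72 h peak, so the peak lists there differ by a short distance.

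Nrp1 (gene ID 18186, chr8:128358591-128505476, 146.9 kb) had 21 naive, 14 48 h and 22 72 h regions. Its counts in the naive and 72 h lists were alike, but the regions were mostly not the same ones. At 72 h against naive cells, 16 were gained, 15 lost and 6 shared. The shared ones were 16.2% of the regions in either list (6.19% to 32.0%), beside 34.1% over all regions. At 48 h against naive cells, 10 were gained, 17 lost and 4 shared. Here the shared part was 12.9% (3.63% to 29.8%), beside 34.5% over all regions. Between 72 h and 48 h, 10 were gained, 2 lost and 12 shared. Of all protein-coding genes, 0.237% had as many or more regions gained at 72 h, and 0.621% as many or more lost. The Nrp1 window of 246.9 kb is also the longest of the 4, and no other protein-coding gene lies in it.

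Gained and lost regions alternated along Nrp1, some of them in runs and others close together, such as a 72 h-only region 165 bp from a naive-only one. In the middle of the body, 4 regions between chr8:128418622 and chr8:128424099, a span of 5.5 kb, had peaks at both Th17 times and none in naive cells. The highest scoring of them, chr8:128420496-128420805, had a score of 158 at 48 h and 179 at 72 h, and the nearest naive peak was 28850 bp away. Further along the body, 5 regions between chr8:128473848 and chr8:128481984, a span of 8.1 kb, were in the naive list alone. The widest of these was 506 bp. Within the body as a whole, 11 regions were naive only, 8 had no naive peak and 4 were in the naive list and at least 1 Th17 list.

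Beyond the far end of Nrp1, the side away from its start, 7 of 9 regions had no naive peak and none was naive only. Over all regions, 28.8% were naive only, 4.73% at 48 h alone, 18.3% at 72 h alone and 13.1% at both Th17 times alone. The strongest of the 9 was chr8:128535593-128536032, 30116 bp past the gene, with a peak of 440 bp at 48 h and 384 bp at 72 h. Its score was 236 at 48 h, at the 97.6th percentile of that list, and 326 at 72 h, at the 97.8th percentile of that list. The nearest naive peak was 15416 bp away. Next to the gene's end, chr8:128505897-128506248 scored 109 at 48 h and 161 at 72 h. The others of the 7 were in the 72 h list alone, with scores of 35, 82, 53, 104 and 31. Before the start, 4 of 7 regions were naive only and 3 had no naive peak. Those 7 lie in A930035F09Rik, a noncoding gene on the opposite strand that starts beside Nrp1.

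The region at the Nrp1 start, chr8:128357739-128358956, was in all 3 lists with peaks of unlike width. The naive peak was 1204 bp wide, the 48 h peak 268 bp, and the wider of 2 peaks at 72 h 506 bp. The lists differ in this in general, with median peak widths of 273, 234 and 239 bp. The naive peak stood at the 98.2nd percentile of widths in its list, the 48 h peak at the 57.2nd and the widest 72 h peak at the 81.3rd. The start window of A930035F09Rik was covered over 300 bases by the naive peak, over 89 by the 48 h peak and over 98 by 72 h peaks.

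**Figure D3:**
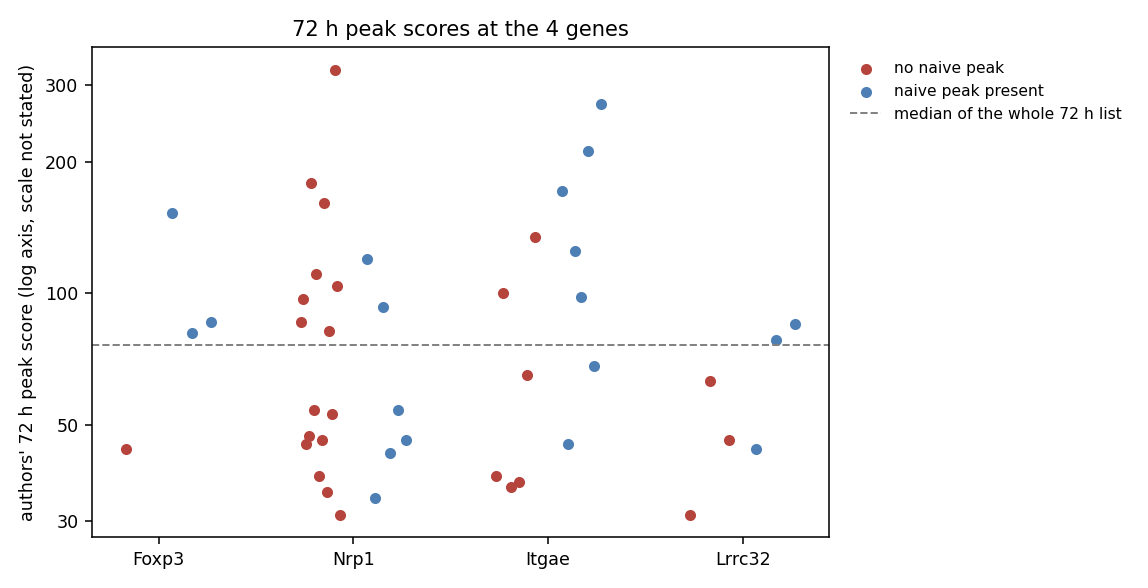
Authors' 72 h score of each region that has a 72 h peak, on a log axis, for regions without and with a naive peak. The dashed line is the median of the whole 72 h list, 76. The highest point is the Nrp1 region past the gene's end, at 326, which has no naive peak.

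Itgae (gene ID 16407, chr11:73090505-73147449, 56.9 kb) had 11 naive, 11 48 h and 13 72 h regions. Equal numbers, 5 and 5, were gained and lost at 48 h against naive cells, and 6 were shared. Of all protein-coding genes, 4.65% had as many or more gained at 48 h and 22.1% as many or more lost. At 72 h against naive cells, 6 were gained, 4 lost and 7 shared, and 8.39% of genes had as many or more gained and 25.7% as many or more lost. In the first 20 kb from the lower end of the body lay all 6 body regions without a naive peak and 3 of the 4 that were naive only. The region chr11:73095516-73095855 had a score of 73 at 48 h and 100 at 72 h, with the nearest naive peak 907 bp away. The region chr11:73110095-73110239 scored 71 at 48 h and 65 at 72 h. The other gained regions in the body were in 1 Th17 list each, 3 at 72 h with scores of 36 to 38 and 1 at 48 h with a score of 57.

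Deeper in Itgae, 3 body regions were in all 3 lists. The first, chr11:73131045-73131366, scored 114 at 48 h and 125 at 72 h and overlaps no other gene. The other 2 overlap Haspin, a histone kinase gene that lies inside Itgae, and chr11:73137994-73138568 covers its start window. That region scored 171 at 48 h and 212 at 72 h, and it was the highest in the body. Outside the body, 4 of 6 regions were in the naive list and at least 1 Th17 list. The regions at the starts of Ncbp3 and of the Emc6 and Tax1bp3 pair were in all lists, and the pair's region scored 236 at 48 h and 272 at 72 h. A region in P2rx5, an ATP-gated channel gene, had no naive peak, chr11:73160268-73160643. It covers part of the start window of the noncoding gene Gm35001 and scored 35 at 48 h and 135 at 72 h.

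Lrrc32 (gene ID 434215, chr7:98489305-98501831, 12.5 kb) had 8 regions in all, with 4 naive, 3 48 h and 6 72 h. At 48 h against naive cells, 2 were gained, 3 lost and 1 shared. By 72 h, 3 were gained, 1 lost and 3 shared. Such counts are common, since 32.1% of genes had as many or more gained at 48 h and 40.8% as many or more lost, and at 72 h the shares were 34.5% and 65.7%. The body held 2 regions, both near its lower end. The wider, chr7:98489719-98490143, had a naive peak of 396 bp, no 48 h peak and a 72 h peak of 361 bp with a score of 78. The other, chr7:98490460-98490602, had no naive peak and scored 64 at 48 h and 63 at 72 h. The nearest naive peak to it was 345 bp away. The region found in all lists, chr7:98534383-98534756, lay 32551 bp past the higher end of the body and scored 88 at 48 h and 85 at 72 h. At the edge of the windows, the outermost regions taken lay 41490 to 45972 bp from a body, and the nearest ones left out lay 50849 to 73588 bp away.

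Narrow naive peaks were lost more often than wide ones, at the 4 genes and over the genome. The naive-only regions at the 4 genes had a median naive peak width of 245 bp, and those in all 3 lists 372.5 bp. Over all regions the medians were 193 and 506 bp. Among the narrowest of 4 equal groups of naive peaks, from 100 to 170 bp, 7 of 8 at the 4 genes had no peak at either Th17 time, beside 73.6% of all. In the widest group, from 485 bp upward, 3 of 8 had none, beside 10.7% of all. These 3 were the Nrp1 regions chr8:128473848-128474353 and chr8:128488030-128488570 and the Cacna1f region in the Foxp3 window. Their naive peaks were 506, 541 and 510 bp wide, near the lower end of a group that runs to 3205 bp over all regions. Of the 27 naive-only regions, 4 lay within 200 bp of a Th17 peak. Of the 31 regions without a naive peak, 2 lay within 200 bp of one.

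**Figure D4:**
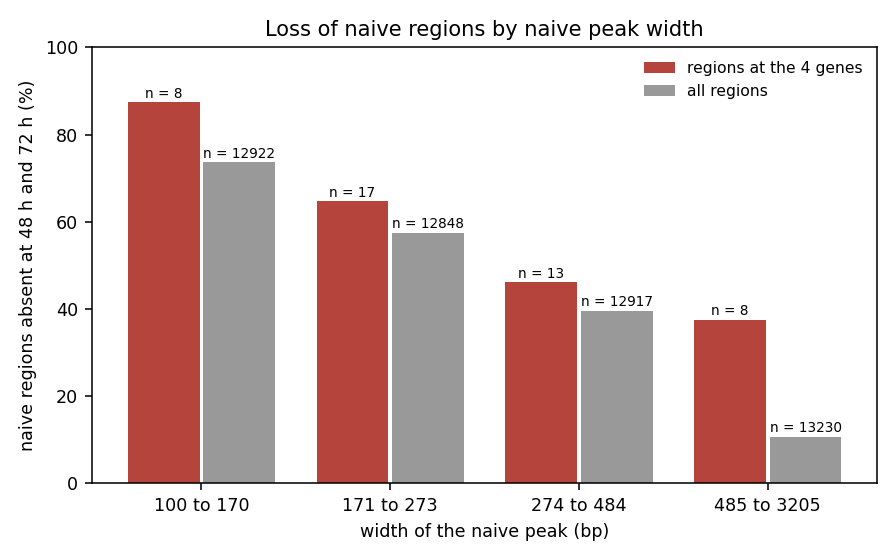
Share of naive regions with no peak at 48 h or 72 h, in 4 groups of naive peak width, for the 4 genes and for all regions, with the number of regions over each bar. The share falls with width in both, to 37.5% at the 4 genes and 10.7% over all regions in the widest group. The peaks of that group run to 1204 bp at the 4 genes and to 3205 bp over all regions.

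Among regions with a 72 h peak, those new at 72 h scored low. The 14 regions in the 72 h list alone had a median 72 h score of 41, beside 51 for all such regions. The 12 shared by 48 h and 72 h had a median of 98.5, beside 91. The 14 in all lists had a median of 92, beside 133.

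The wider regulatory T cell programme, a list of 24 further genes, was read beside the 4. At 48 h against naive cells, 56 of its regions were gained and 131 lost, or 18.1% and 42.3% of those in either list, beside 21.9% and 43.7% over all regions. At 72 h, 98 were gained and 124 lost, or 27.8% and 35.2%, beside 33.0% and 33.0%. Counting body and 50 kb on each side, 4 of the 24 genes had more regions gained than lost at 48 h, 19 had more lost and 1 had equal numbers. Some listed genes are neighbours with overlapping windows, such as Gpr83 and Izumo1r, Tnfrsf18 and Tnfrsf4, and Ctla4 and Icos. Their shared regions count for more than 1 gene, so the genes are not separate loci. Over 18218 protein-coding genes with a region, 21.3% had more gained and 61.9% more lost. The 72 h list gave 6 with more gained than in naive cells, 15 with more lost and 3 with equal numbers, where 40.5% and 43.0% of all genes had more gained and more lost. Between 72 h and 48 h, 21 of the 24 had more gained and 3 more lost, beside 67.5% and 11.4% of all genes. Entpd1, the gene of the ectonucleotidase CD39, had 0 gained and 17 lost at 48 h and 1 gained and 16 lost at 72 h. Izumo1r, which encodes folate receptor 4, had 2 gained and 13 lost at 48 h and 1 gained and 14 lost at 72 h. Gpr83, a G protein-coupled receptor gene, had 1 gained and 10 lost at 72 h. Il10, the gene of the cytokine interleukin-10, went the other way with 7 gained and 1 lost at 48 h and 11 gained and 3 lost at 72 h.

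**Figure D5:**
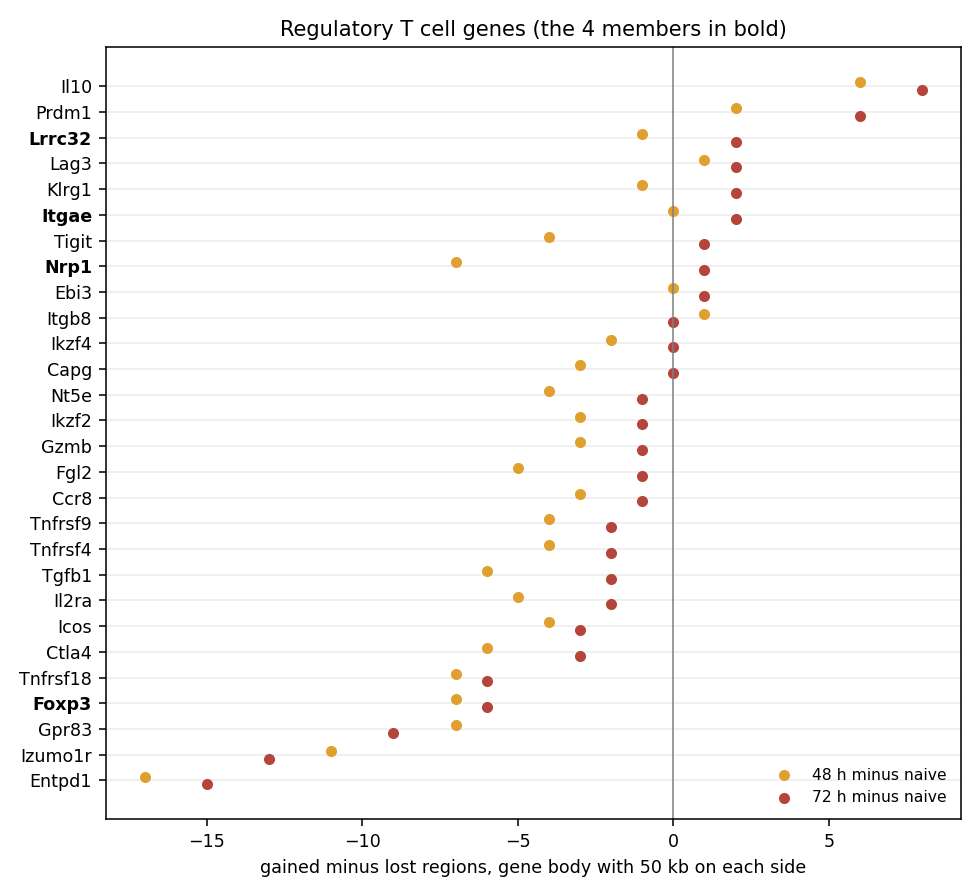
Regions gained minus regions lost for the 28 genes of the regulatory T cell list, 48 h and 72 h each against naive cells, sorted by the 72 h value. Foxp3 stands at -7 and -6, Nrp1 at -7 and 1, Itgae at 0 and 2, and Lrrc32 at -1 and 2.

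Genes of factors that act on Foxp3 were read the same way. Of 28, 4 had more regions gained at 48 h against naive cells and 23 more lost, beside 21.3% and 61.9% of all genes. Over the list, 107 regions were gained and 255 lost. These are 20.5% and 48.8% of the regions in either list, beside 21.9% and 43.7% over all regions. By 72 h, 12 had more gained and 16 more lost against naive cells, beside 40.5% and 43.0% of all genes. The regions were 177 gained and 235 lost, or 29.8% and 39.6% beside 33.0% and 33.0%. In this list too, neighbours such as Stat3, Stat5a and Stat5b have overlapping windows, so the counts of genes are not of separate loci. Bach2, a repressor that favours regulatory T cell formation, had 11 gained and 34 lost at 48 h and 24 gained and 33 lost at 72 h. Satb1, a chromatin organiser that primes the regulatory T cell programme in the thymus, had 1 gained and 18 lost at 48 h and 1 gained and 17 lost at 72 h. Nfatc1, a calcium-dependent factor of T cell receptor signalling, had 4 gained and 20 lost at 48 h and 5 gained and 17 lost at 72 h. Foxo1, which drives naive T cell homing genes and Foxp3, had 3 gained and 15 lost at 48 h. Nr4a1, a nuclear receptor gene induced early by T cell receptor signals, had 1 gained and 10 lost at 72 h. Nfatc2, another factor of T cell receptor signalling, was chosen after its values were seen. It had 7 gained and 9 lost at 48 h and 16 gained and 9 lost at 72 h.

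The labels were checked at marker genes. All 5 naive CD4 markers read here, such as Ccr7 and Lef1, had more regions lost than gained at both times, where 61.9% and 43.0% of all genes had. So did 6 of 7 general CD4 T cell markers at 48 h and 4 of 7 at 72 h, so loss alone does not set naive markers apart. The 4 at 72 h were Cd5 and the neighbours Cd3e, Cd3d and Cd3g, whose windows share regions. Of 7 Th17 markers, 6 had more gained at 48 h and all 7 at 72 h, where 21.3% and 40.5% of all genes had. Il17a had 0 naive, 6 48 h and 11 72 h regions. Il17a and Il17f are neighbours that share regions too, so these counts of genes are not counts of separate loci. Each of the 7 general CD4 T cell markers had regions in every list. Counting each region once, B cell markers had 35 naive, 29 48 h and 44 72 h regions, myeloid markers 36, 23 and 28, and CD8 and NK markers 35, 19 and 27. Of the 6 CD8 and NK markers, Ncr1 had none in the naive and 48 h lists and 1 in the 72 h list. Klrb1c, also an NK cell marker, had 20 naive, 7 48 h and 9 72 h regions. Cd8a, Cd8b1 and Eomes had regions in every list, and Gzma in the naive and 72 h lists. The part of other cells in the results above was not tested.

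The genes most like each of the 4 in how their regions spread over the 7 combinations of lists were found by Bray-Curtis similarity over 18194 protein-coding genes. Aldh7a1 matched Foxp3 in every class, followed by Ctnnd1 and Gja10 at 0.957. Fgg matched Lrrc32 in every class, followed by Pdp1 and Setd3 at 0.941. Nrp1 had no exact match, and its nearest were Ablim1 at 0.925, Rad51b at 0.897 and Celf2 at 0.892. The nearest to Itgae were Nup210 at 0.974 and Jakmip1 and Pmel at 0.95. The likeness rests on 3 lists and on small counts.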

How the data were processed

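The data were 3 peak lists from ATAC-seq, 1 per condition, with no reads or signal, so depth is unknown. Per the submitters' processing notes, the tools included MACS2 2.2.6, Bowtie2 2.3.4.1, deepTools and SAMtools 1.9 and the build was GRCm38 (mm10). Not given in the sources used here are the threshold, filters, any shift for the Tn5 cut and any pooling of libraries, each of which can change which peaks are listed. The deposited 48 h and 72 h lists hold a whole-number score per peak, 30 or more, of unstated scale; the naive list holds none. An incomplete line, 1 in the naive list, was dropped. Starts were read as counted from 0 and are printed counted from 1.

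Peaks sharing at least 1 bp were merged with Python 3.11.15, pandas 2.3.3 and numpy 2.4.6, intervals came from scipy 1.17.1, and gene bodies and start windows came from RefSeq (GRCm38.p6). Strand was known for Foxp3 and Nrp1 only. The merging was tested on simulated data. Named genes were the 4 members, their neighbours, the genes with the most unequal counts in each list (up to 4 per comparison) and the 3 most alike by Bray-Curtis similarity. The members and lists were chosen with earlier results of these data known, and 1 naive CD4 marker is not reported here. Alternatives were 9 other settings of merging, peak filter and window.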

Additional observations from a re-analysis of the deposited data

How the results depend on the processing

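No paired analysis was possible because each condition has 1 peak list and no values per replicate, and for the same reason no replicate could be left out. With only the wider peaks, those no narrower than their list's median, 7 regions were gained and 17 lost at 48 h against naive cells, 8 and 14 at 72 h against naive cells, and 6 and 2 between 72 h and 48 h. With gene bodies only, the counts were 9 and 20, 14 and 17, and 10 and 2. Without Nrp1, a setting added after seeing the data, they were 7 and 15, 10 and 12, and 9 and 3. When each list was limited to its 40624 widest peaks, 13 were gained at 72 h against naive cells, and between 72 h and 48 h the balance turned to 6 gained and 10 lost. That setting removes the narrowest peaks of the longer lists by construction. With a flank of 10 kb, 17 were gained at 72 h against naive cells, and 12 were gained and 3 lost between 72 h and 48 h. With 48 h and 72 h peaks at or above the median score, 11 were gained and 2 lost between them. Leaving out regions over another protein-coding gene, also added later, gave 3 lost between 72 h and 48 h. The other 23 counts for the 4 genes together stayed the same or moved by less than 1.5 times. Of the counts of regions per gene and list, 47 stayed the same or moved by at most 1.5 times, and 37 moved by more. At Foxp3, lost regions at 48 h numbered 2 to 7 over these settings and gained regions 0. Without regions over another protein-coding gene, 3 were lost at Foxp3 at 48 h and at 72 h.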

Other observations

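Genes linked to the 3 surface molecules were read in the same way, by regions gained and lost in the body and 50 kb on each side. The 7 partners of Lrrc32 were the TGF-β genes Tgfb1, Tgfb2 and Tgfb3 and genes whose products bind, store or activate TGF-β. Of these 7, 4 had more regions gained than lost at 48 h against naive cells and 4 at 72 h. Over all genes, 21.3% and 40.5% had. Over the list, 20 regions were gained and 26 lost at 48 h, or 29.0% and 37.7% of those in either list. Over all regions the shares were 21.9% and 43.7%. At 72 h, 39 were gained and 23 lost, or 44.3% and 26.1%, beside 33.0% and 33.0% over all regions. Itgav, the αV integrin chain that activates latent TGF-β, had 11 gained and 3 lost at 72 h, and Ltbp1, which ties latent TGF-β to the matrix, had 8 gained and 1 lost. Nrros, a relative of Lrrc32 that also holds latent TGF-β, had 5 gained and 8 lost at 72 h. Listed with Itgae were its partner chain Itgb7, its ligand gene Cdh1 and the other integrin chains Itga4, Itgb1 and Itgal. Of these 5 genes, 4 had more lost at 48 h and 4 at 72 h, where 61.9% and 43.0% of all genes had. Itgb1, the β1 chain, had 4 gained and 5 lost at 48 h and 7 gained and 3 lost at 72 h. Itgb7, the β7 chain that pairs with CD103, had 0 gained at both times, 5 lost at 48 h and 4 lost at 72 h. Itga4, which pairs with the same β7 chain, had 0 gained and 12 lost at 48 h and 4 gained and 11 lost at 72 h.

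Of 9 ligands and partners of Nrp1, 2 had more gained and 5 more lost at 48 h, beside 21.3% and 61.9% of all genes. At 72 h, 4 had more gained and 4 more lost, beside 40.5% and 43.0%, so the counts were close to those shares. Sema3f, a semaphorin gene, had 0 gained and 8 lost at 48 h. Vegfa had 0 gained and 5 lost at 72 h. Plxna2, a plexin coreceptor gene, had no naive region, 2 at 48 h and 4 at 72 h.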
